A study of Rattus norvegicus with 9 samples.

Results

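Late haemoglobin-rich erythroid cells were the cells in which at least 10% of all unique molecular identifiers (UMIs, each standing for 1 captured RNA molecule) came from the haemoglobin genes Hba-a1, Hba-a2, Hbb, Hbb-b1 and Hbb-bs. Only barcodes with at least 200 detected genes and at most 20% mitochondrial UMIs were considered, and cells with at least 2 UMIs of Klf1 and at least 3 UMIs of Car1 together were set apart as early erythroid cells. The members were thus chosen by measured values of these 7 genes, after a filter on detected genes and mitochondrial UMIs. The rule found 2723 late erythroid cells among 114232 cells kept, which was 2.38% with a 95% exact binomial interval from 2.30% to 2.47%. The early erythroid group held 1460 cells, and all cells in neither group are called the rest.

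The cells came from the proximal tibia of Sprague-Dawley rats aged 6 to 8 weeks, all of which carried a 3 mm circular osteotomy and a 4 mm skin wound on the foot of the same side. In the TO arm the osteotomy was left alone. In the TOE arm radial shock waves were also aimed at the cut bone on day 2 and on day 4 after surgery. Tissue collected 4 h or 24 h after the day 2 session was taken before the session of day 4. Single-cell RNA sequencing libraries of TO 2d 0h (collected on day 2 before any session), TO 2d 4h, TO 4d 4h, TO 4d 24h, TOE 2d 4h, TOE 2d 24h, TOE 4d 4h and TOE 4d 24h were used, where d gives the day and h the hours after the session or its untreated counterpart. TO 2d 24h was not analysed here. Each combination of arm, day and hour was 1 library, so differences between TO and TOE were given per pair of libraries and were not tested over libraries, and intervals given for shares and ratios cover counting error only. The labels do not say which rat gave which library. All of these groups share the surgery, and no unoperated bone was among them.

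Red cells develop in the bone marrow from dividing erythroblasts, which fill with haemoglobin, a tetramer of alpha and beta globin chains that each hold a haem group. During the last divisions transcription narrows to globins, haem enzymes and membrane proteins, ribosomes and mitochondria are cleared, and the nucleus is condensed and expelled to leave a reticulocyte. The beta-like and alpha-like globin genes lie in separate clusters of near-identical copies.

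The 5 genes of the rule are represented here by the 120 bases upstream of their annotated starts, since their relative use differed between libraries. The sequences are from RefSeq (GRCr8), all on the minus strand and written 5′ to 3′, with capitals for 3 motifs searched on both strands. These were CCAAT, the core of the box of that name, then CACCC, the kind of site that Klf1 binds, and last the letters ATAAA, part of the TATA-like box of globin genes. Hba-a1 lies at chr10:15842581-15842700, Hba-a2 at chr10:15829139-15829258, Hbb at chr1:167663722-167663841, Hbb-b1 at chr1:167643521-167643640 and Hbb-bs at chr1:167631631-167631750.
Hba-a1: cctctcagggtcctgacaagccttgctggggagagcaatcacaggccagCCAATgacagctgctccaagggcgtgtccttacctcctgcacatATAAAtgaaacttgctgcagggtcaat
Hba-a2: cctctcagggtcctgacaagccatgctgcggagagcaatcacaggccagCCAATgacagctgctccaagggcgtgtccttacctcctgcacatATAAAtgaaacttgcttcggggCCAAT
Hbb: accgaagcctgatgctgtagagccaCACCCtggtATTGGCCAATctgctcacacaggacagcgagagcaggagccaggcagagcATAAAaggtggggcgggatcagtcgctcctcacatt
Hbb-b1: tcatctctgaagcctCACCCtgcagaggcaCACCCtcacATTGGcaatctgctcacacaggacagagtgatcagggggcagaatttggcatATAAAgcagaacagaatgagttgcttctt
Hbb-bs: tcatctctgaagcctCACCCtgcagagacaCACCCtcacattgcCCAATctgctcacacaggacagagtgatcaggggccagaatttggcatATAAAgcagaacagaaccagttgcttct
Hba-a1 and Hba-a2 were 5 edits apart over this window, and Hbb-b1 and Hbb-bs 7 edits apart, whereas Hbb was 40 edits from each of the other two beta genes. CCAAT and ATAAA were found in 5 of 5 windows, against 19.9% and 21.5% of the 33469 windows of the same length in the table. CACCC was found in the 3 beta genes and not in the alpha genes, against 29.5% of all windows. GATAA was found in 0 of the 5 windows and in 11.2% of all windows. These matches describe letters only.

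Late erythroid cells carried the erythroid genes outside the rule. Of them, 2710 (99.5%) held at least 2 UMIs summed over 10 erythroid markers that the rule did not use, among them Alas2, Slc4a1, Ahsp, Hemgn, Rhag, Epb42, Ermap and Tspo2. The same was true of 0.979% to 13.0% of cells with a Cd79a UMI, a B cell gene, in the rest of each library, a level to which free RNA and doublets may both add. Cells with a Cd79a UMI were most of the rest, such as 11567 of 13925 in TO 2d 0h, and were not taken to be B cells. The median number of these UMIs in a late cell was 62 to 148.5 across the 7 libraries with members. Median depth was 4290 to 8716 UMIs in late cells and 4368 to 5542 UMIs in cells with Cd79a.

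The late cells covered a wide range of haemoglobin content. Their median haemoglobin share lay between 41.4% of UMIs (TO 4d 24h) and 51.8% (TO 4d 4h), and the highest single cell, of TO 2d 0h, reached 88.8%. They held 64.1% to 78.6% of all haemoglobin UMIs of their libraries. At the threshold, 62 members had 10% to 12% haemoglobin, and 65 cells just outside it had 8% to 10%. Between 2% and 5% lay 436 cells of TO 2d 4h, compared with 27 to 112 cells in the other 6 libraries with members.

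**Figure D1:**
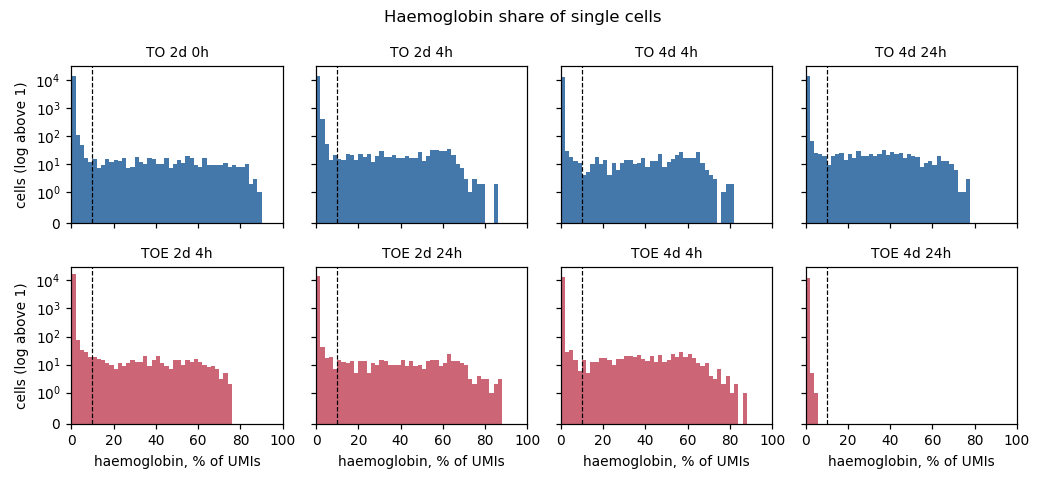
Number of kept cells (vertical axis, logarithmic above 1) by the percentage of a cell's UMIs from the 5 haemoglobin genes, in bins of 2%, for the 8 libraries, with TO in blue, TOE in red and the 10% threshold dashed. In 7 libraries the cells right of the threshold spread up to between 74.7% and 88.8%, and in TOE 4d 24h no cell passed 4.23%.

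Late erythroid cells were found in 7 of 8 libraries and were missing from TOE 4d 24h. In the TO arm, TO 2d 0h had 371 late cells (2.56%), TO 2d 4h had 521 (3.40%), TO 4d 4h had 320 (2.51%) and TO 4d 24h had 475 (3.37%). In the TOE arm, TOE 2d 4h had 319 (1.88%), TOE 2d 24h had 347 (2.40%) and TOE 4d 4h had 370 (2.67%). TOE 4d 24h held 0 late cells of 12329, which allows a share of up to 0.0243% by a floor of 3 cells and of up to 0.0299% by the exact 95% interval.

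At 2d 4h the share in TOE was 0.553 times that in TO, with an exact conditional 95% interval from 0.480 to 0.637. At 4d 4h the ratio was 1.06, from 0.912 to 1.24, an interval that includes 1. At 4d 24h the ratio was 0, and its exact conditional interval reached up to 0.00892. The ratio at 4d 4h lay between 0.919 and 1.16 over other filters and thresholds. Its interval left out 1 when early erythroid cells were kept (1.16, from 1.02 to 1.33) or cells were thinned to 500 UMIs (1.15, from 1.01 to 1.31). These 2 settings held nearly the same numbers of members, 402 TO and 508 TOE cells against 403 and 504. They are not taken as separate checks. The ratio at 2d 4h was 0.717, from 0.396 to 1.28, when members with UMIs of other cell types were left out (23 TOE and 29 TO cells). With 1 library on each side a difference in tissue sampling cannot be told apart from one of condition.

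**Figure D2:**
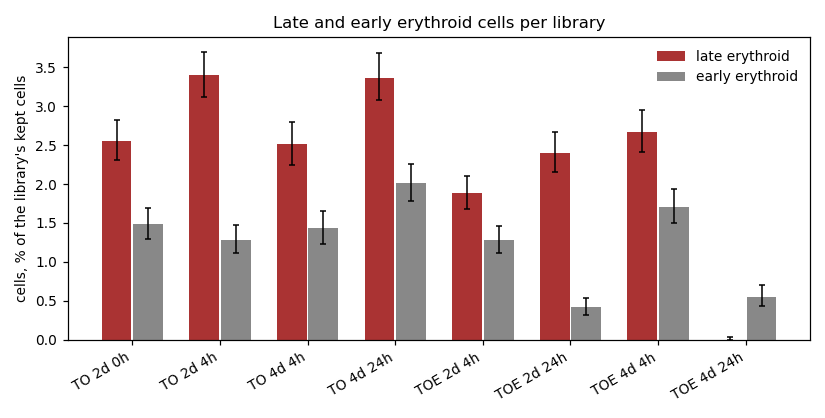
Late (red) and early (grey) erythroid cells as a percentage of the kept cells of each library; bars start at 0 and error bars are exact 95% binomial intervals. Late cells made up 1.88% to 3.40% in 7 libraries and 0 in TOE 4d 24h, where early cells were present.

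The empty library differed in other haemoglobin readings as well. Its 68 early erythroid cells held 4368 CPM of haemoglobin, here per 1000000 of all UMIs, against 28495 to 96845 in the early cells of the other libraries. Alas2, the erythroid enzyme of the first step of haem synthesis, stood at 14.1 CPM in these early cells and at 114 to 582 CPM in the others, where CPM from here on is UMIs per 1000000 UMIs outside the 7 genes of the rule. Slc4a1, the anion exchanger of the red cell membrane, stood at 74.3 CPM against 368 to 987 CPM. In the rest of TOE 4d 24h haemoglobin made up 22.1 per 1000000 of all UMIs, while the rest of the other libraries held 724 to 1640. Its early cells numbered 68, close to the 60 early cells of TOE 2d 24h, a library with 347 late cells, while the other 6 held 182 to 284. In the same rest the 10 neutrophil genes summed to 82640 CPM, against 26171 to 43868 CPM in the other libraries. The cause of the missing late cells was not tested.

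The beta chain in use divided the libraries into 2 kinds. Hbb, a beta globin gene, supplied 27.8% of the haemoglobin UMIs of late cells in the TO 2d 0h library, and its part reached 28.1% for TOE 2d 24h. Elsewhere it supplied 1.87% (TO 2d 4h), 1.35% (TO 4d 4h), 2.95% (TO 4d 24h), 1.49% (TOE 2d 4h) or 1.28% (TOE 4d 4h). The 2 kinds did not overlap, and they crossed both arms.

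The split held cell by cell. In cells with at least 20 beta chain UMIs, the median share of Hbb among beta chain UMIs was 72.9% for TO 2d 0h, with a 5th percentile of 61.1%, while TOE 2d 24h had a median of 74.3%. In the other libraries the medians were 6.65% to 14.1%, and the 95th percentile was at most 19.5%. The ratio of beta to alpha UMIs was 0.609 for TO 2d 0h, close to the 0.608 of TOE 2d 24h, against 0.232 to 0.258 elsewhere. The same split was seen outside the late cells, where Hbb made up 23.0% and 22.4% of haemoglobin UMIs in the rest of these 2 libraries and 0.891% to 1.92% in the rest of the other 6. Since the beta genes share much of their sequence, counts assigned to single copies are uncertain, and the cause was not tested.

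Among the alpha chains Hba-a1 supplied 40.9% to 54.5% and Hba-a2 21.2% to 27.6% of haemoglobin UMIs. Hba-a3, an alpha-like copy outside the rule, varied more. Late cells held 63 UMIs of it in the TOE 2d 24h library, 365 (TO 4d 24h), 933 (TOE 2d 4h), 2162 (TO 2d 0h) or 4086 to 5431 (the 3 remaining libraries). Its level ranged from 64.4 CPM in the first of these to 3119 CPM for TOE 4d 4h. Hbb-b2, another beta copy, ranged from 10650 CPM in TOE 2d 24h to 28462 CPM in TO 4d 4h. The embryonic genes were near absent, with 31 to 120 UMIs of Hbe1 and 0 to 7 UMIs of Hbz per library.

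**Figure D3:**
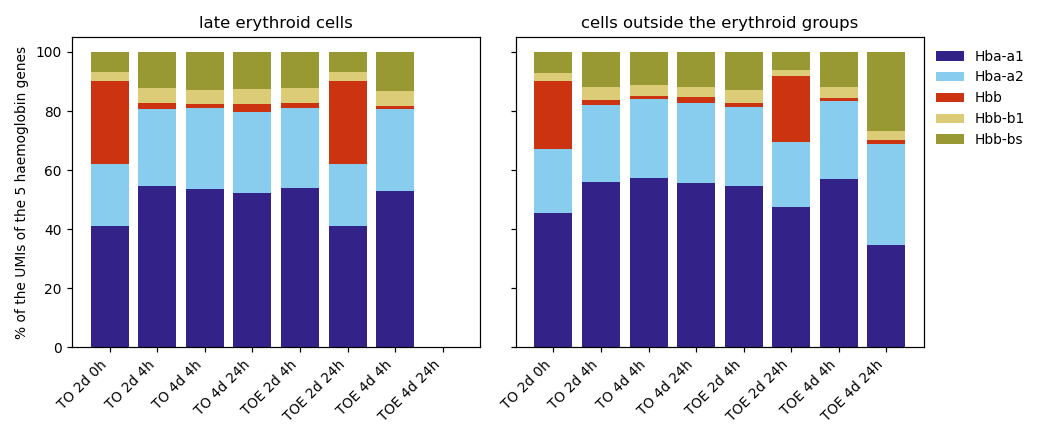
Percentage of the UMIs of the 5 haemoglobin genes that came from each gene, per library, in late erythroid cells (left) and in the rest (right). Hbb (red) takes 27.8% and 28.1% of the late cells' bar in 2 libraries and at most 2.95% in the others; TOE 4d 24h has no late cells.

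To see what else late cells expressed, UMIs were summed per library, the 7 genes of the rule were removed, and late cells were compared with the rest of the same library by edgeR over the 7 libraries. Because the cells were selected on haemoglobin, the calls describe the group and are not independent evidence of it. Of 17960 genes tested, 3633 were higher (20.2%) and 5811 lower (32.4%) in late cells at an adjusted p under 0.05. Rises were 38.5% of the calls, and 18.4% without scaling factors, where the median over all genes was -0.96. All 10 erythroid markers outside the rule were higher, with a median log2 fold change of 9.40, against -0.38 over all genes tested. All 18 membrane and skeleton genes, 11 of 11 haem synthesis genes and 16 of 16 genes of terminal maturation were also higher, with medians of 8.87, 6.05 and 6.05.

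The 10 genes with the largest rise by the naming rule were Hbb-b2, Alas2, Trim58, Trim10, Slc4a1, Lgals5 and 4 uncharacterised loci. Alas2 stood at 3169 (TO 2d 0h), 3955 (TO 2d 4h), 4092 (TO 4d 4h), 2755 (TO 4d 24h), 3512 (TOE 2d 4h), 3036 (TOE 2d 24h) and 4390 CPM (TOE 4d 4h) in late cells, so the libraries lay within a narrow range. It averaged 3560 CPM in late cells and 4.65 CPM in the rest (log2 fold change 10.18 ± 0.18 SE), and it was higher in late cells of 7 of 7 libraries. Trim58, a ubiquitin ligase of late erythroblasts, averaged 420 CPM against 0.724 CPM. Lgals5, a galectin of rat reticulocytes, averaged 1811 CPM against 3.16 CPM.

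All 10 genes with the largest fall had 0 UMIs in late cells. They included the natural killer cell receptors Klrb1a, Klrd1 and Ly49s6 and the transcription factor Ebf3. With the floor of 3 UMIs over all late cells, Klrb1a was at least 7.10-fold lower and Dzip1 at least 4.38-fold lower than in the rest.

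Genes of neutrophils, B cells and mesenchymal cells had lower summed levels in late cells than in the rest but were not absent. At least 3 UMIs over Cd79a, Cd79b, S100a8, S100a9, Col1a1, Col1a2, Mpo and Csf1r were found in 2578 late cells (94.7%). The 10 neutrophil genes summed to 9719 to 20506 CPM in late cells of the 7 libraries, to 2212 to 8656 CPM in early cells and to 26171 to 43868 CPM in the rest. The 9 measured B cell genes summed to 1778 to 3025 CPM in late cells, 446 to 655 CPM in early cells and 4225 to 7454 CPM in the rest. The 8 mesenchymal genes summed to 247 to 2442 CPM in late cells and 1742 to 12939 CPM in the rest. Late cells have few molecules outside haemoglobin, with medians of 1997 to 3826 UMIs per cell, and no doublet caller was run. The part of free RNA and doublets in these values was not tested.

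Compared with early erythroid cells, late cells gave a larger share of their RNA outside the rule to haem, membrane and clearance genes and a smaller share to ribosomal proteins. The rise was not particular to red cell genes. All 8 B cell, 9 neutrophil and 8 monocyte and macrophage genes tested were higher too, with median log2 fold changes of 2.28, 2.11 and 1.77. Of 5 mesenchymal genes tested 2 were higher, and the 1 platelet gene tested was lower. Of 9512 genes tested, 3507 were higher (36.9%) and 3874 lower (40.7%) in late cells by edgeR. When members with UMIs of other cell types were left out, 113 late cells in 4 libraries gave 382 genes higher and 1479 lower. Of the 7381 calls, 1458 then had the opposite sign, counted whether or not the gene passed the test in that fit. The median log2 fold change over all genes there was -1.19, so a change of sign need not be a reversal. The groups were split by Klf1 and Car1 counts, so this contrast is again a description. Part of the early cells also held at least 10% haemoglobin, such as 138 of 237 in TOE 4d 4h and 55 of 217 in TOE 2d 4h. Both genes are part of the rule, so their levels are given without a test. Klf1, which activates globin genes, stood in late cells at 577 to 1010 UMIs per 1000000 outside haemoglobin, against 400 to 592 in the early cells of the same libraries, while Car1 was 86.8 to 174 against 1816 to 3278.

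Genes of terminal maturation were higher in 16 of 16, with a median log2 fold change of 2.81 against -0.08 over all genes. Alox15, a lipoxygenase that acts on membranes of organelles in reticulocytes, averaged 1425 CPM in late and 36.7 CPM in early cells (log2 fold change 6.38 ± 0.43 SE). Xpo7, a nuclear export receptor, averaged 5959 CPM against 210 CPM. Bnip3l, which marks mitochondria for autophagy, averaged 1632 CPM against 240 CPM, and Ube2o, a ubiquitin conjugating enzyme that remodels the proteome of reticulocytes, 1387 CPM against 98.8 CPM. These 4 genes were higher in late cells in 7 of 7 libraries.

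Membrane and skeleton genes were higher for 17 of 18, with a median of 2.38. Epb41, a protein of the membrane skeleton, averaged 2837 CPM in late and 314 CPM in early cells. Xk was at 47.7 and 45.7 CPM and did not pass the test. Of 11 haem synthesis genes 10 were higher and Tmem14c lower, with a median of 1.60. Fech, which inserts iron into haem, averaged 1755 CPM against 303 CPM. Tmem14c, a mitochondrial porphyrin carrier, averaged 665 CPM against 1365 CPM.

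Iron genes were mixed, with 6 of 10 higher and 3 lower. Slc25a37, the mitochondrial iron importer of erythroid cells, and Ncoa4, which delivers ferritin to autophagy, were higher by 3.36 and 3.60 on the log2 scale. The transferrin receptor Tfrc was higher by 1.47. The exporter Slc40a1 and the haem exporter Flvcr1 were lower, with log2 fold changes of -0.48 and -0.59. Of 9 redox and red cell enzyme genes 7 were higher. Bpgm, which makes the phosphoglycerate that lowers the oxygen affinity of haemoglobin, was higher by 4.38, whereas Sod1 and Pklr were lower at -2.22 and -1.96.

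The regulators moved in both directions. Foxo3, Nfe2, E2f2 and Mxi1 were higher by 2.55, 3.18, 2.65 and 2.20. Lmo2, Ldb1 and Bcl11a were lower at -2.11, -1.66 and -1.85. Gata1 averaged 159 CPM in late and 130 CPM in early cells, a log2 fold change of 0.52. Among the 8 genes of early progenitors 6 could be tested and 5 were lower, including Kit, the stem cell factor receptor, at 0.444 CPM in late and 39.6 CPM in early cells, and Gata2 at 14.6 against 81.8 CPM.

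Of 18 cell division genes tested, 8 were higher and 7 lower in late cells, shares near those of all genes. All 6 Mcm genes of the replicative helicase were lower, from -1.10 for Mcm7 to -2.14 for Mcm2, together with Pcna at -1.01. Mki67, Ccnb1, Ccnb2, Ccna2, Cdk1, Top2a, Birc5 and Aurkb were higher, by 0.33 to 1.07. Rrm2, Tyms and Cdca8 did not pass the test, at 0.20, 0.03 and -0.10. Without scaling factors 7 genes were higher and 8 lower.

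Cytosolic ribosomal protein genes were lower in 85 of 86 cases, with a median log2 fold change of -1.50. They made up 6.14% to 9.60% of the UMIs outside the rule in late cells, 22.2% to 26.1% in early cells and 13.6% to 16.6% in the rest of the same libraries. The ranges did not overlap. Late cells expressed fewer genes, with medians of 917 to 1360 genes per cell, against 3168 to 5995 in early cells. Early cells were deeper, with median counts of 13490 to 35307 UMIs in these libraries, and their rule asks for raw UMIs of 2 genes, so depth and stage cannot be told apart here.

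The genes with the largest rise over early cells also included Rsad2 and Ifit1, both known as interferon-stimulated genes. Rsad2 averaged 678 CPM in late and 18.6 CPM in early cells (log2 fold change 5.67), and Ifit1 49.8 against 1.89 CPM (4.94). Tmcc2 averaged 4186 against 170 CPM, and Slfn14, a ribosome-associated endoribonuclease of reticulocytes and platelets, 299 against 13.3 CPM. The largest falls included Hpn at 0.135 against 35.7 CPM, Prr16 at 0.138 against 24.9 CPM, Hmga2 at 0.0685 against 12.8 CPM and Ltbp1 at 3.83 against 336 CPM.

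**Figure D4:**
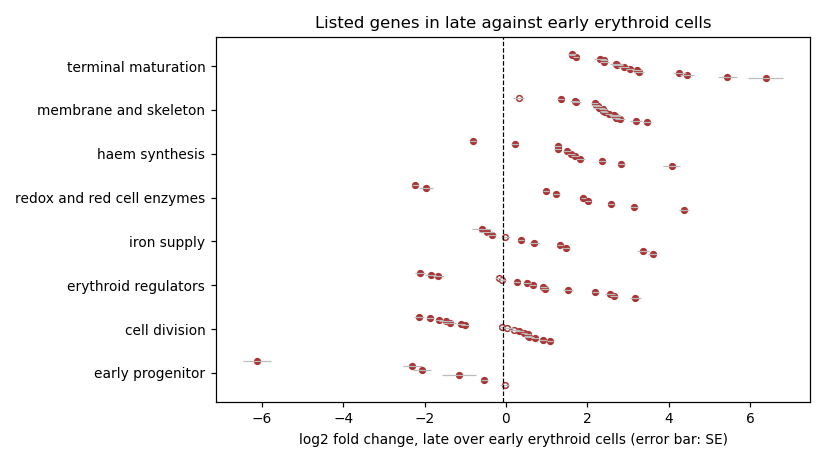
Log2 fold change of late over early erythroid cells from edgeR over 7 libraries for each tested gene of 8 lists, with standard errors as bars, filled points for adjusted p under 0.05 and open points otherwise. The dashed line is the median over all 9512 genes (-0.08). Terminal maturation genes all lie right of it, early progenitor genes lie left of it apart from Runx1, and cell division genes lie on both sides.

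Within the late cells the levels of many genes followed the haemoglobin share. The cells were divided into 565 cells with 10% to 30% haemoglobin, 976 with 30% to 50% and 1182 with at least 50%. This division and its comparison were added after the data had been seen. In each of the 7 libraries Alas2 rose with the band, from 1044 to 1414 CPM in the low band to 2524 to 3456 CPM in the middle and 5713 to 7766 CPM in the high band. The 3 ranges did not overlap. Bnip3l rose from 426 to 838 CPM in the low band to 1914 to 4042 CPM in the high band. Xpo7 was at 1060 to 3105 CPM in the low band and 5642 to 16226 CPM in the high band.

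Alox15 stood highest in the top band of each library. Its level in TO 2d 4h was 211 CPM in the low, 269 CPM in the middle and 3443 CPM in the high band. In TOE 4d 4h it was above the other libraries in all bands, at 799, 1265 and 8938 CPM.

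Mki67, the proliferation marker, was highest in the middle band in 6 of 7 libraries. It stood at 2429, 3692 and 724 CPM across the bands of TO 2d 4h, whereas for TOE 2d 24h the low band was highest, at 1494, 1441 and 736 CPM. Top2a, which untangles chromosomes before division, was 254 to 759 CPM in the low, 601 to 787 CPM in the middle and 70.2 to 268 CPM in the high band, and it was highest in the middle band in 4 of 7 libraries. The share of ribosomal proteins fell from 9.09% to 11.6% in the low band to 3.94% to 8.02% in the high band, and the median number of genes per cell from 1436 to 2667 to 738 to 1204. S100a9, a neutrophil gene, was 8757 to 23599 CPM in the low, 1612 to 6008 CPM in the middle and 2725 to 4478 CPM in the high band. It did not fall steadily in every library, and in TO 2d 4h the middle band had 1612 CPM against 3427 CPM in the high band.

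In edgeR with the library as a block, 1490 genes were higher (29.7%) and 1554 lower (30.9%) in the high than in the low band, of 5022 tested. All 16 terminal maturation genes, all 18 membrane and skeleton genes and 10 of 11 haem synthesis genes were higher, with medians of 2.79, 1.72 and 1.73 against -0.13 over all genes. Genes of other cell types went both ways. Of 8 neutrophil genes tested 1 was higher and 3 lower, and of 5 B cell genes 4 were lower. All 5 mesenchymal genes and all 3 granulocyte and monocyte progenitor genes tested were higher. The largest rises were those of Hba-a3, Bpgm, Alox15, Sowaha, Rsad2, Bpifa6, Ifit1bl, Tmcc2, Selenbp1 and an uncharacterised locus. Bpgm averaged 3504 CPM in the high and 314 CPM in the low band (log2 fold change 4.50 ± 0.18 SE). Averages in CPM carry no scaling factors, whereas these fold changes use TMM factors, so the 2 do not match. The largest falls included the replication genes Pola1, Cdt1, Clspn, Tipin, Atad5 and Brca1, with Pola1 at 24.8 against 187 CPM. Since the bands were cut on haemoglobin, these calls describe the ordering. Without scaling factors the median over all genes was -1.08 and 15.6% of calls were rises in place of 48.9%, so values near the median carry no direction. Under that scaling 14 of 18 membrane genes and 16 of 16 maturation genes stayed higher, 81 of 81 ribosomal protein genes were lower in place of 26, and 15 of 18 division genes were lower in place of 8. Ccnb1, Ccnb2 and Birc5 were higher with TMM factors, whereas no division gene was higher without them.

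**Figure D5:**
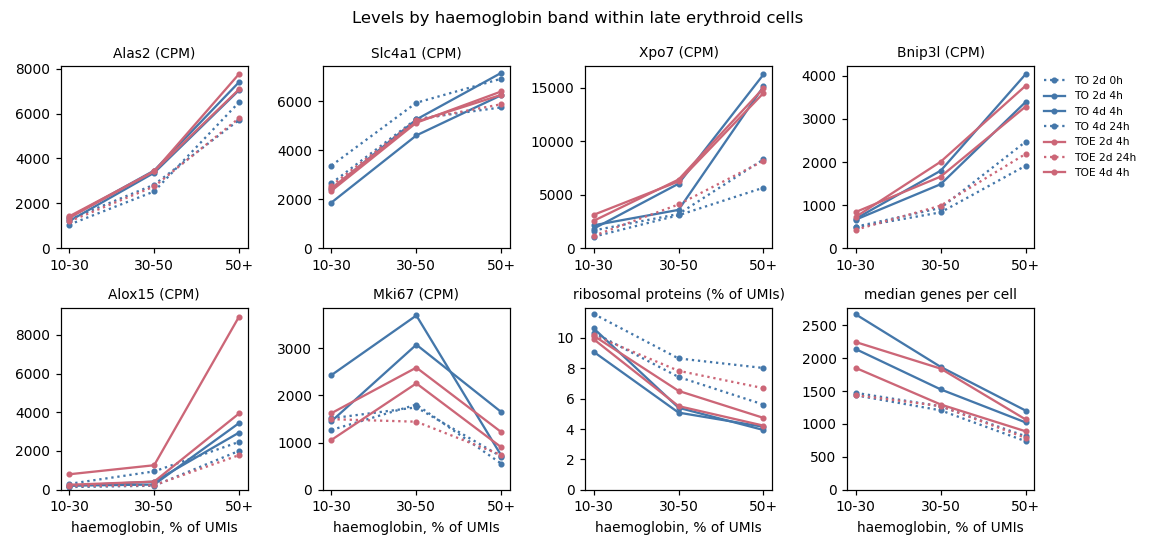
Level of 6 genes in CPM, the share of ribosomal protein UMIs in percent and the median number of genes per cell, by haemoglobin band (horizontal axis, percent of UMIs) in late erythroid cells of 7 libraries; TO blue, TOE red, solid lines for 4 h and dotted lines for 0 or 24 h. Alas2, Xpo7, Bnip3l and Slc4a1 climb in every library, Alox15 climbs mainly in the last band, and ribosomal proteins decline.

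The 4 libraries collected at 4 h (TO 2d 4h, TO 4d 4h, TOE 2d 4h and TOE 4d 4h) differed from the 3 collected at 0 or 24 h (TO 2d 0h, TO 4d 24h and TOE 2d 24h). This grouping by hour was chosen after the values had been seen. It mixes arms and days, so hour cannot be told apart from anything else these libraries share. Among the 3 libraries at 0 or 24 h were both libraries with a high Hbb share, and none at 4 h. Xpo7 was 6999 to 8244 CPM in late cells at 4 h and 3076 to 4134 CPM at 0 or 24 h, without overlap. Bnip3l was 1939 to 2107 against 896 to 1235 CPM, Fech 1932 to 2286 against 1108 to 1163 CPM, and Hemgn, a nuclear protein of erythroid cells, 2150 to 2458 against 1130 to 1426 CPM. Slc4a1 overlapped, at 4359 to 4884 and 4384 to 5112 CPM.

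By edgeR, 787 of 8781 genes were higher (8.96%) and 912 lower (10.4%) at 4 h. Among the listed genes 9 of 18 membrane and skeleton genes, 8 of 16 terminal maturation genes and 6 of 15 regulators were higher and none of them lower. Xpo7 was higher by 1.04, Trim10 by 1.16, Zfpm1, a partner of Gata1, by 1.15 and Alox15 by 1.23 on the log2 scale. Alas2 was at 0.38 and did not pass the test. Of 6 mesenchymal genes tested 4 were lower at 4 h and 0 higher. The 8 listed mesenchymal genes summed to 247 to 674 CPM at 4 h and 1024 to 2442 CPM at 0 or 24 h in late cells. In the rest of the same libraries the sums were 1742 to 4554 and 4716 to 12939 CPM. The mitochondrial genes were lower in 14 of 15 cases and ribosomal protein genes in 54 of 84. The filter on cells used the mitochondrial genes and capped their share in every cell kept, in late cells and the rest alike. The calls on these genes and the medians that follow therefore describe cells chosen partly by the same values. Mitochondrial UMIs had medians of 1.24% to 1.59% in late cells at 4 h and 2.19% to 3.49% at 0 or 24 h. In the rest of the same libraries the medians were 2.08% to 2.86% and 3.46% to 4.22%, so these libraries were apart in the rest too. The rest of TOE 4d 24h, which has no late cells, had a median of 2.66%, inside the range at 4 h. Ribosomal proteins made up 13.6% to 14.7% of the UMIs of the rest at 4 h and 15.5% to 16.6% in the 3 libraries at 0 or 24 h, against 13.4% in TOE 4d 24h.

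Median depth of late cells was 5172 to 8716 UMIs at 4 h and 4290 to 4839 UMIs at 0 or 24 h. Without TO 2d 0h, 468 genes were higher and 534 lower at 4 h, and without TO 4d 24h 549 were lower. The 20 genes named were picked for the size of their change in late cells, so that all 20 were apart between the hours there is no separate result. Of these, 16 were apart in the same direction in the rest. The rest of TOE 4d 24h, also collected at 24 h, was left out of this count and of the ranges below. The share of all genes apart in the rest was not worked out, so this count has no background. Hmgb2l1 was 185 to 372 CPM in late cells at 4 h and 9.32 to 21.5 CPM at 0 or 24 h, and 90.7 to 164 against 7.67 to 10.9 CPM in the rest. Bglap, the osteocalcin gene of osteoblasts, was 18.6 to 48.9 against 261 to 568 CPM in late cells and 142 to 275 against 697 to 1971 CPM in the rest. Prss29, a tryptase-like protease, was 0 to 0.642 against 32.6 to 112 CPM in late cells and 0.550 to 1.86 against 110 to 212 CPM in the rest. Hspb1, a small heat shock protein, overlapped between the hours in the rest and was 0.951 to 7.82 CPM at 4 h and 46.0 to 68.3 CPM at 0 or 24 h in late cells.

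Within the late cells, TOE could be set beside TO on both days for the 4 h collections. Most genes of any kind lay within 2-fold, those of the red cell programme among them. At 2d 4h, 6188 genes had at least 50 UMIs over the pair, of which 205 were past 2-fold higher (3.31%) and 76 past 2-fold lower (1.23%) in TOE. With TMM scaling of this pair 102 were higher and 134 lower, so the balance of directions rests on the scaling. At 4d 4h another set of 6188 genes qualified, of which 135 were higher (2.18%) and 125 lower (2.02%). None of the 10 erythroid markers, 11 haem synthesis genes or 18 membrane genes was past 2-fold in either pair, which is near the low share over all genes. Their median log2 ratios at 2d 4h were -0.17, -0.12 and -0.12, beside 0.13 over all genes, and at 4d 4h they were -0.08, 0.06 and -0.01, beside -0.01.

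Among the other globins Hba-a3 was past 2-fold lower in TOE at 2d 4h, with 933 against 5431 UMIs and a ratio of 0.345, and the median log2 ratio of the 4 globins was -0.53. Slc40a1, the iron exporter, was past 2-fold lower at 4d 4h, with 18 against 47 UMIs and a ratio of 0.389. Of the division and progenitor genes, Tyms, Mcm5 and Gata2 were past 2-fold at 4d 4h, with log2 ratios of -1.56, -1.26 and 1.55. Alox15 was the exception among the 16 terminal maturation genes. At 4d 4h it stood at 3744 CPM for TOE against 1297 CPM for TO, with a ratio of 2.89. The day 2 values were 1230 CPM (TOE) and 1213 CPM (TO). At 2d 4h, 3 of 6 B cell genes with at least 50 UMIs were past 2-fold higher in late cells of TOE, with a median log2 ratio of 1.14. In the rest the summed B cell genes stood at 7454 CPM for TOE against 5609 CPM for TO. At 4d 4h 0 of 8 such genes were past 2-fold in late cells, with a median of 0.25. The summed neutrophil genes stood lower for TOE in both pairs. In the rest they were at 27062 against 37236 CPM on day 2 and 37018 against 43868 CPM on day 4. In late cells they were at 10858 against 17182 CPM on day 2 and 11137 against 20506 CPM on day 4. The genes did not move together on day 2, where Mmp9 and Mmp8 were past 2-fold higher, Camp and Np4 past 2-fold lower and the median log2 ratio of the list was 0.08. The summed monocyte and macrophage genes stood higher for TOE in both pairs. At 4d 4h they were at 13511 against 7028 CPM in the rest and 3486 against 2772 CPM in late cells. At 2d 4h they were at 7636 against 7211 CPM in the rest and 1997 against 1573 CPM in late cells. The part of these genes of other cell types in the differences of other genes was not tested.

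Several of the genes named in each pair came from very few cells. In TO 2d 4h, 327 of 372 UMIs of Stfa2l3 and 146 of 165 UMIs of Stambp lay in 1 late cell each, as did 56 of 76 UMIs of C1qa and 49 of 52 UMIs of Defa7. In TOE 4d 4h 93 of 111 UMIs of RT1-Bb and 114 of 176 UMIs of RT1-Ba, both MHC class II genes, lay in a single cell. In TO 4d 4h 55 of 57 UMIs of LOC102546488 lay in 1 cell.

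Others were spread over many cells. At 2d 4h Evc2 had 370 UMIs over 67 late TO cells but 12 UMIs over 3 late TOE cells. The ratio of levels was 0.0651 with an interval from 0.0333 to 0.115. Evc2 was near absent from the rest at 0.587 (TO) and 0.377 CPM (TOE). At 4d 4h it stood at 155 CPM (TO) and 122 CPM (TOE) in late cells, counted over tested genes. Rragd, a Rag GTPase, had 96 UMIs over 61 TOE cells against 19 UMIs over 13 TO cells at 2d 4h. Atf5, a stress-responsive transcription factor, had 145 UMIs over 69 TOE cells against 19 UMIs over 14 TO cells at 4d 4h, with a ratio of 7.74 (4.78 to 13.2). RT1-A3, an MHC class I gene, was higher in TOE in both pairs, with ratios of 6.25 and 6.10, and in the rest of the same libraries it was 151 against 54.9 CPM at 2d 4h and 211 against 93.3 CPM at 4d 4h. Of the 10 genes named in each pair, 4 at 2d 4h and 3 at 4d 4h were past 2-fold in the same direction in the rest. The share of all genes past 2-fold in the rest was not worked out, so these counts have no background. These are differences between single libraries.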

How the data were processed

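Single-cell RNA-seq was performed on cells from the tibial osteotomy site. The deposited matrices, made by the authors with Cell Ranger 9.0.0, hold raw UMI counts of 41801 genes as whole numbers with no normalization. The submitters' processing notes also name Seurat, R 4.0.3 and, among genome builds, mRatBN7.2 and GRCh38. Counting between near-identical globin copies was left as deposited. Of 116711 barcodes, 114232 passed the filter stated in the report. Every library with a matrix held barcodes of at least 500 UMIs. Between pairs of libraries 38 to 108 cells shared a barcode sequence, and no late cell did.

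The members and the gene lists were chosen with earlier results of these data known. Shares were given exact Clopper-Pearson intervals, ratios exact conditional intervals and levels are CPM outside the 7 genes of the rule. Levels carry no scaling factors, whereas fold changes from edgeR use TMM factors, so a ratio of levels need not equal the fold change. UMIs were summed per library and group (at least 20 cells), and tested with edgeR 4.0.16 in R 4.3.3 (TMM, filterByExpr, quasi-likelihood test, library as block except between hours, Benjamini-Hochberg adjustment). DESeq2 1.42.0 was an alternative. Named genes were the members of the lists, the 10 largest rises and falls with at least 100 UMIs in each comparison, and the 5 largest rises and falls with at least 50 UMIs in each pair of single libraries, where a prior of 0.5 UMI was added and no test was run. Other values singled out were chosen after they had been seen. On data simulated with known changes, edgeR recovered 96.9% of 97 genes changed by 1 on the log2 scale in late against early cells (9263 genes), and 51.5% of 99 such genes between hours (8505 genes). False calls were 10 of 203 and 4 of 152. The simulation changed few genes, evenly up and down. In late against early cells 7381 of 9512 genes were called, so the recovery need not carry over to that comparison. Replicates within a condition do not exist here, so p-values measure the spread between libraries of different conditions. Python 3.11.15 with numpy 2.4.6, scipy 1.17.1 and pandas 2.3.3 was used. No doublet caller was run. Some genes of the lists are not reported here.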

Additional observations from a re-analysis of the deposited data

Results flagged for a closer look

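The ratio of the late erythroid share in TOE to that in TO was 0.553 for the 2d 4h pair, while the 4d 4h pair had 1.06. It was marked because these pairs, both collected at 4 h, lay on different sides of 1. The other day 4 pair, 4d 24h, had a ratio of 0. The difference between the days was not tested, since each ratio rests on 1 library per arm, and the interval at 4d 4h includes 1. The TOE library of 2d 4h preceded the day 4 session, so day cannot be told apart from the sessions given by then. With at least 50% haemoglobin the ratios were 0.464 at 2d 4h and 0.995 at 4d 4h, on the same side of 1.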

How the results depend on the processing

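Over all libraries the share of late cells was 2.59%, 2.14% and 1.03% at haemoglobin thresholds of 5%, 20% and 50%. It was 2.23% under a stricter filter (500 genes, 10% mitochondrial UMIs). It was 2.87% when cells with Klf1 and Car1 and at least 10% haemoglobin were counted as late, and 2.87% when each cell was thinned to 500 UMIs. It was 0.127% when members with UMIs of other cell types were left out. The ratio at 2d 4h was 0.464 at the 50% threshold and 0.717 without members that held other markers, where its interval (0.396 to 1.28) included 1. At 4d 4h it was 0.995 at the 50% threshold, 0.995 under the stricter filter and 0.919 without members with other markers. That last choice left 113 late cells in 4 libraries with enough cells. It gave 584 genes higher and 1688 lower than in the rest, and 382 higher and 1479 lower than in early cells. Without scaling factors, an alternative chosen after seeing the data, 2332 genes were higher and 10362 lower than in the rest (18.4% of calls higher in place of 38.5%), and 664 higher and 3584 lower between the bands. For late against early cells the share of rises then was 38.2% in place of 47.5%. Leaving out 1 library at a time gave 468 to 721 genes higher and 534 to 800 lower between hours. Genes past 2-fold with at least 200 UMIs over the pair numbered 46 at 2d 4h and 57 at 4d 4h. With TMM scaling 102 genes were higher and 134 lower at 2d 4h. Of the genes called, those with the opposite sign without scaling factors numbered 612 of 9444 against the rest, 18 of 7381 against early cells, 527 of 3044 between bands and 0 of 1699 between hours. Without members that held other markers they numbered 1765 of 9444 against the rest and 1458 of 7381 against early cells, and at the 50% threshold 464 and 267. An opposite sign was counted whether or not the gene was called in the alternative. Without members that held other markers the median log2 fold change over all genes was -7.38 against the rest and -1.19 against early cells. Of 238 alternative values 172 stayed within their limits and 66 moved, 44 of them values of single libraries. Causes were not tested. Replicate numbers paired no samples, and a fit of arm within day and hour was not run. Depth limits genes with few UMIs, since the 7 libraries with members held 319 to 521 late cells each.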
